A study of Mus musculus with 12 samples.

Results

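The genes described here are 37 genes of the response to low oxygen and of glycolysis, chosen by name from the table of normalized counts of hernia-associated fibroblasts (HAFs). Of these, 36 were among the 13233 genes of the table, and the aldolase gene Aldoc was not analysed here. They were read as 2 sets, with 25 genes of glycolysis, its transporters, its regulators and glycogen synthesis in one and 11 other hypoxia genes in the other. HAFs are fibroblasts grown from the lower abdominal muscle of Aromhum mice, a transgenic line that carries the human aromatase gene, whose product makes estradiol (E2), and that develops inguinal hernia. All 4 groups of 3 samples were such cells, so the controls carried the transgene too and no wild-type cells were compared. The cells were passaged a single time, starved of serum overnight, and then kept for 48 h with vehicle (ethanol and DMSO), with 10 nM E2, with 10 nM E2 plus 100 nM fulvestrant, or with 100 nM fulvestrant alone, in medium with a trace of charcoal-stripped serum. Fulvestrant is an antagonist of the estrogen receptor ESR1 that also lowers ESR1 protein. The samples of each group are numbered 1, 2 and 3, and the labels do not say which numbers came from separate mice or cultures, so p-values measure only the spread between these samples, which may be technical.

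The hypoxia response is built on hypoxia-inducible factors (HIFs), dimers of an oxygen-sensitive alpha subunit (Hif1a or Epas1) and a stable partner. In oxygenated cells prolyl hydroxylases of the Egln family mark the alpha subunit for destruction, so its control lies largely in the protein and less in the mRNA. The dimer binds a short core sequence in the DNA and raises genes for glucose uptake, glycolysis, lactate production, glycogen storage, blood vessel growth and mitochondrial clearance. Several of these genes are also set by other signals, among them growth factors and steroid hormones, and fibroblasts in culture carry much of their energy metabolism through glycolysis.

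The core letters of that site were looked for upstream of these genes to show what lies before their RefSeq start sites. RefSeq sequences of GRCm38.p6 gave a window of 250 bases before the start site for 33 of the 36 genes, and Ndrg1, Epas1 and Bnip3l had none. The letters ACGTG or GCGTG were searched on both strands (CACGT and CACGC on the reverse), and CACGTG, which reads ACGTG on both strands, was counted on each. ACGTG was found in 17 of the 33 windows (51.5%), against 22.2% of the windows of the 9440 genes of the table that had one. GCGTG was found in 16 of the 33 (48.5%), against 47.0% of all windows. The stretches that hold the matches are printed for the 7 genes with a window that were called in both fulvestrant comparisons below, of which 6 rose (Slc2a1, Hk2, Pfkp, Pfkfb3, Ero1a and Bnip3) and Ldhb fell, and for Ldha and Pfkm, the partner subunits of Ldhb and Pfkp. Each is written 5′ to 3′ on the strand of its gene, with the matching letters in capitals. By the gene models used for positions, which can start earlier than RefSeq, all 25 bases of the Pfkfb3 stretch, 13 of Slc2a1 and 8 of Ero1a lie in exons of the gene.
Slc2a1 (chr4:119108674-119108723, plus strand): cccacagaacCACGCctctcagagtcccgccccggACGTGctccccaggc
Hk2 (chr6:82774492-82774690, minus strand): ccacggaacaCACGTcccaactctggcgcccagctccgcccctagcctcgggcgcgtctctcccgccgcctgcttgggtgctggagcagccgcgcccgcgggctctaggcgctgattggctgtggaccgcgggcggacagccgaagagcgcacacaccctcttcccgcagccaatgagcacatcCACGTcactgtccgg
Pfkp (chr13:6648780-6648917, minus strand): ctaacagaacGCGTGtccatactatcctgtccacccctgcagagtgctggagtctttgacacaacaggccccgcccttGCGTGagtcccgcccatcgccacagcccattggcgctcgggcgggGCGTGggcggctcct
Pfkfb3 (chr2:11553975-11553999, minus strand): ccgcgccgtgACGTGccaagctgtg
Ldha (chr7:46845649-46845784, plus strand): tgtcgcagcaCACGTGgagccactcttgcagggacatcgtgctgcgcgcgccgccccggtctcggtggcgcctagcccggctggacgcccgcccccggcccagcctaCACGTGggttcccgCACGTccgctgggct
Ero1a (chr14:45318621-45318710, minus strand): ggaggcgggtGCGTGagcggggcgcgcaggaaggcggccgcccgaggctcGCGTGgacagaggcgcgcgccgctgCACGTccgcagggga
Bnip3 (chr7:138909527-138909633, minus strand): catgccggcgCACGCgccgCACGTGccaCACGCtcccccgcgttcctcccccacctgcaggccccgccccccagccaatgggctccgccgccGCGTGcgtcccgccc
Pfkm (chr15:98092443-98092468, plus strand): ttaagtatgcCACGTGaagtaagtaa
Ldhb (chr6:142508069-142508093, minus strand): gggggagagcGCGTGcacactccag
Ldha held 5 matches of ACGTG, 4 of them from 2 copies of the palindrome, Hk2 held 2, and Pfkp and Ldhb held matches of GCGTG alone. A match is a run of letters and not a measured site. Among the windows, ACGTG stood in 7 of 14 genes that rose with fulvestrant in either comparison below, in 2 of 3 that fell and in 8 of 16 that were called in neither.

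Samples held 18827792 to 44040507 reads on the listed genes, with no gene under 10 reads in any of them. All 10 fibroblast markers were listed. Their summed level was 487380 to 552350 normalized counts with vehicle, 560907 to 623159 with E2, 422512 to 442418 with E2 plus fulvestrant and 391540 to 459609 with fulvestrant alone, and of the 10, 5 fell with E2 plus fulvestrant against E2, namely Col1a1, Col1a2, Col3a1, Lum and Esr1, where 4.62% of all genes fell. With fulvestrant against vehicle 4 of the 10 fell, the same genes without Col1a2, where 5.69% of all genes did. Of other cell types, 0 of 5 adipocyte and 0 of 6 epithelial or mesothelial markers were listed, 1 of 8 endothelial (Tek, without Pecam1 or Cdh5), 1 of 9 myogenic (Tnnt3, without Pax7, Myod1 or Des), 3 of 6 macrophage (without Ptprc or Adgre1), 2 of 4 Schwann and 4 of 6 mural. The summed levels of these stood at no more than 277 endothelial, 215 myogenic, 442 macrophage and 223 Schwann normalized counts in any sample, and the mural markers at 4608 to 8439. Of these markers S100b (Schwann) fell with E2 plus fulvestrant against E2 (-0.91, adjusted p = 0.0228) and Notch3 (mural) with fulvestrant against vehicle (-0.85, adjusted p = 0.0125). In bulk samples, fewer cells of a type and less RNA per cell cannot be told apart, and the part of these markers in the results below was not tested. As a check of the drug, Pgr, a gene that ESR1 induces, was 25.4, 85.3 and 104 with vehicle, 145, 268 and 304 with E2, 14.8, 28.4 and 27 with E2 plus fulvestrant, and 13, 21.5 and 16.2 with fulvestrant alone, and within each replicate number it was highest with E2 and lower with fulvestrant than without it, while vehicle replicate 1 lay within the range of E2 plus fulvestrant.

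The samples numbered 1 stood apart from those numbered 2 and 3 in these genes before any treatment was compared. Of the 36 genes, 33 differed between replicate numbers in the fit across all genes (limma F test, adjusted p under 0.05), where 62.5% of all genes did. Lower levels in replicate 1 were found for 28 of them, against 32.7% of all genes, and higher levels for 5 (Pfkp, Pfkm, Pdk1, Pdk2 and Pfkfb4), against 29.8%. Between replicates 2 and 3, 0 of the 36 and 0 of all genes differed by the limma test, and 264 of all genes had an unadjusted p under 0.05. The largest gaps were those of the glucose transporter Slc2a1, at -2.92 ± 0.32 on the log2 scale (mean of the 4 treatments ± SD, replicate 1 minus the mean of replicates 2 and 3), Hk2 (-2.87 ± 0.26), Ero1a (-2.70 ± 0.18), Egln3 (-2.63 ± 0.67) and the lactate transporter Slc16a3 (-2.51 ± 0.61). For Slc2a1 this is a level 7.56-fold lower in replicate 1. The median gap was -0.83 over the 36 genes and -0.02 over all genes. Hif1a, the alpha subunit itself, differed by -0.69 ± 0.078, while Ldhb (-0.082 ± 0.09), Pdk3 (-0.10 ± 0.11) and Epas1 (0.24 ± 0.87) were the 3 genes that did not pass. Replicate number took 88.1% of the sum of squares of these genes and treatment 8.10%, against 70.0% and 18.2% over all genes. The labels do not say what the numbers stand for, so mouse, culture and day cannot be told apart.

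**Figure D1:**
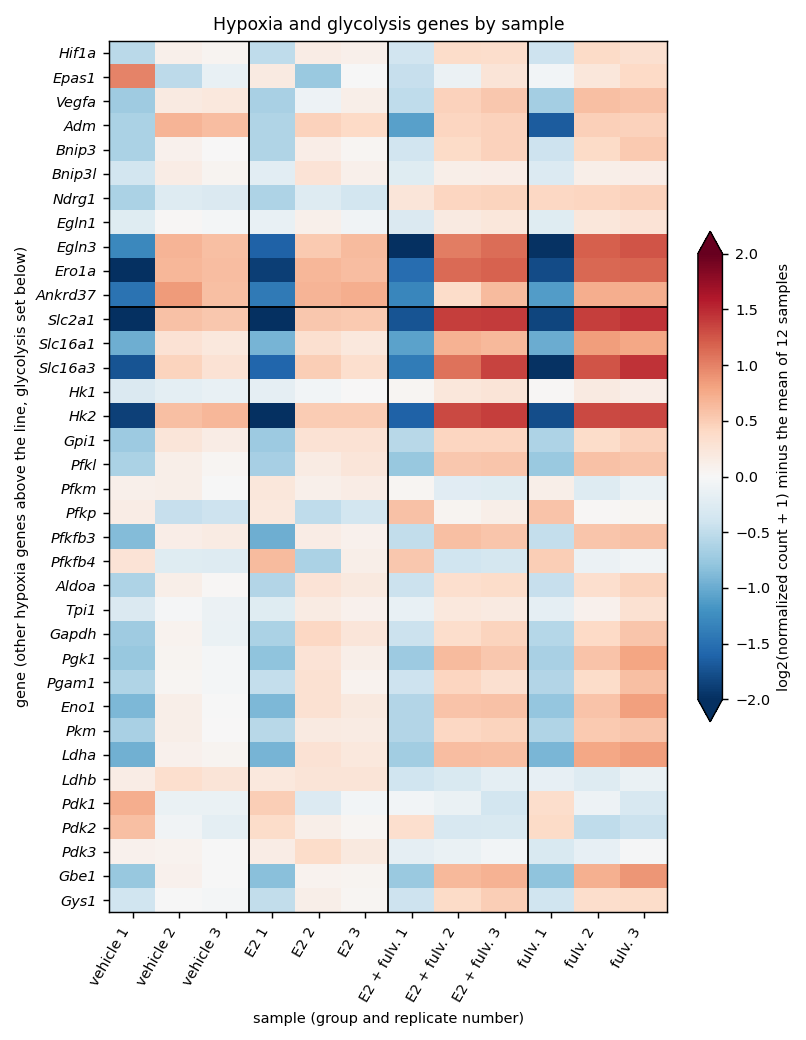
Level of each of the 36 genes in the 12 samples, as log2(normalized count + 1) minus the mean of the gene over the 12 samples; colors end at -2 and 2, the horizontal line parts the 2 sets, and vertical lines part the treatment groups. Replicate 1 is the lowest sample of each group for most genes, including Slc2a1, Hk2, Ero1a and Egln3, and it is the highest of each group for Pfkp, Pdk1, Pdk2 and Pfkfb4.

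Related lists were counted in the same way. Of 38 other HIF target genes measured, 24 were lower and 6 higher in replicate 1, with a median gap of -0.57. Heme oxygenase Hmox1, at -3.94 on the log2 scale, had a larger gap than any of the 36. Of 17 other glycolysis genes 6 were lower and 6 higher in replicate 1, near the shares of all genes (32.7% and 29.8%). Of 18 other glycogen genes 3 were lower and 8 higher, of 20 other regulators of the pathway 8 and 3, and of 15 genes of pyruvate entry 8 and 5.

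Fulvestrant was then read within replicate number, as the difference between samples of the same number, because all treatments were present in each number. With E2 plus fulvestrant against E2, 8 of the 36 genes rose, 3 fell and 25 were not called, a call being an adjusted p under 0.05 over all genes together with a fold change over 1.2. In all, 9.60% of the 13233 genes were called, 4.97% higher and 4.62% lower. The genes that rose were Hk2, Ndrg1, Slc2a1, Pfkp, Ero1a, Pfkfb3, Vegfa and Bnip3, by log2 fold changes from 0.29 to 0.83, and the genes that fell were Ldhb, Pdk3 and Pfkm. The median over the 36 genes was 0.18 on the log2 scale and that over all genes 0.01. With fulvestrant alone against vehicle, 14 rose, 1 fell (Ldhb) and 21 were not called, where 12.5% of all genes were called, 6.76% higher and 5.69% lower. The 14 were Slc2a1, Hk1, Hk2, Pfkp, Pfkfb3, Aldoa, Gapdh, Pgk1, Eno1, Pkm, Ldha, Bnip3, Ndrg1 and Ero1a, and the median over the 36 was 0.28.

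The 2 comparisons share no sample, but they share the replicate numbers and the spread estimated in the fit of all 12 samples. Their agreement is therefore not independent. In both, 8 genes were called, each in the same direction: Slc2a1, Hk2, Pfkp, Pfkfb3, Bnip3, Ndrg1 and Ero1a rose and Ldhb fell. Over all genes 6.95% were called in both in the same direction and 0 in opposite directions. Split by set, 4 of 25 glycolysis genes rose and 3 fell with E2 plus fulvestrant against E2, and 11 rose and 1 fell with fulvestrant alone against vehicle. Of the 11 other hypoxia genes, 4 and 3 rose, and 0 fell in either. These calls rest on the pairing. Without the replicate number in the fit, 2 of the 36 genes were called in the first comparison (Ndrg1 and Ldhb) and 1 in the second (Ndrg1), where 0.521% and 0.544% of all genes were called. Fitted on the 6 samples of the 2 groups alone with the replicate number, the counts were 13 and 6, where 8.68% and 5.23% of all genes were called.

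**Figure D2:**
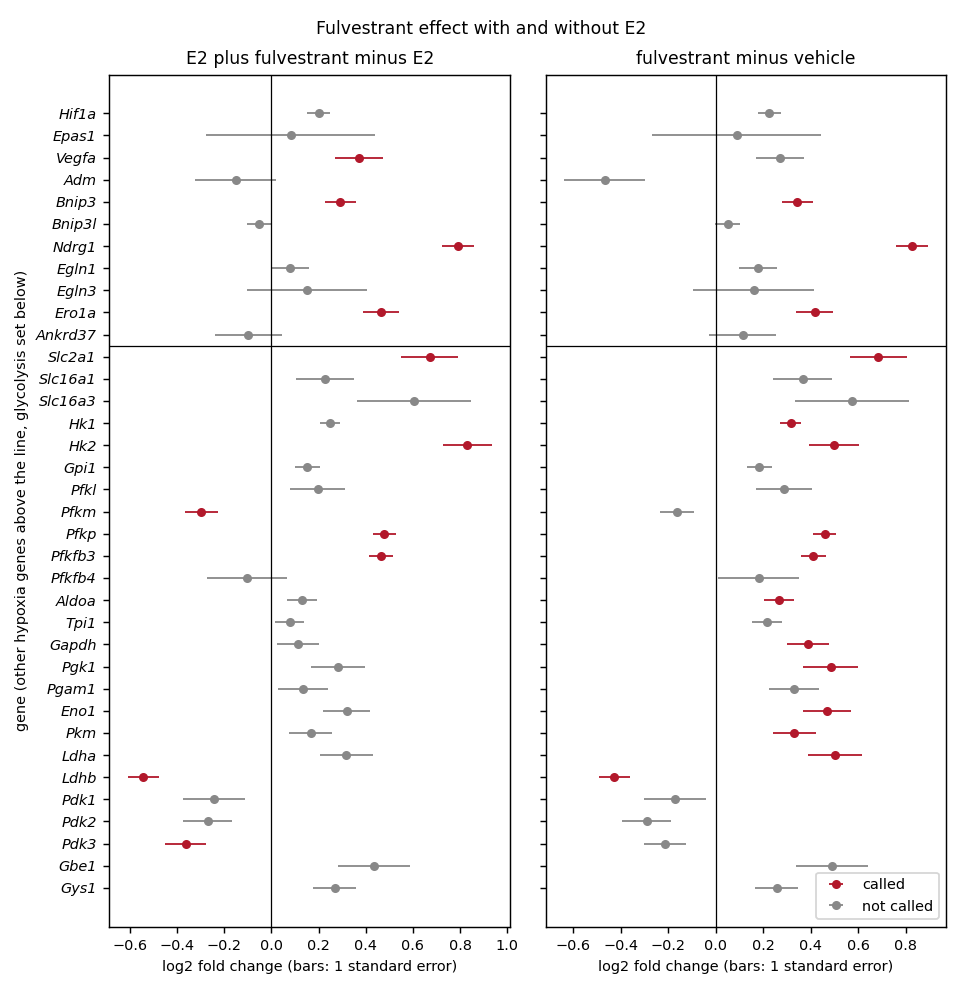
Log2 fold change of each of the 36 genes for E2 plus fulvestrant minus E2 (left) and fulvestrant minus vehicle (right), with bars of 1 standard error from the fit of all 12 samples with replicate number; red points were called. Hk2, Ndrg1 and Slc2a1 lie farthest to the right on the left panel, at 0.83, 0.79 and 0.67, and Ldhb lies to the left of 0 in both panels.

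Glucose enters the cell through Slc2a1 (GLUT1) and is trapped by the hexokinases Hk1 and Hk2. The normalized counts of Slc2a1 in replicates 1, 2 and 3 were 872, 5926 and 5741 with vehicle, 967, 5761 and 5678 with E2, 1193, 10279 and 10426 with E2 plus fulvestrant, and 1107, 10368 and 10723 with fulvestrant alone. All 3 numbers were higher with the drug, and the groups overlapped, with replicate 1 low throughout. The log2 fold change was 0.67 ± 0.12 (SE, adjusted p = 0.00507) for E2 plus fulvestrant against E2 and 0.68 ± 0.12 (SE, adjusted p = 0.00381) for fulvestrant against vehicle, 1.59-fold and 1.61-fold. Hk2, the inducible hexokinase, was 365, 2008 and 2099 with vehicle, 251, 1898 and 1881 with E2, 434, 3336 and 3483 with E2 plus fulvestrant, and 389, 3333 and 3344 with fulvestrant alone. Its replicate 1 rose with E2 plus fulvestrant against E2 by nearly as much as the other numbers, and hardly moved with fulvestrant alone against vehicle. The changes were 0.83 ± 0.10 (SE, adjusted p = 0.000626) and 0.50 ± 0.10 (SE, adjusted p = 0.0092), and the latter was not called in the fit of these 2 groups alone. Hk1, the constitutive form, was 3395, 3628 and 3748 with vehicle, 3638, 3989 and 4161 with E2, 4232, 4842 and 4942 with E2 plus fulvestrant, and 4198, 4689 and 4529 with fulvestrant alone. Fulvestrant samples lay above their controls in both comparisons with no overlap of groups, by a small margin, at 0.25 ± 0.044 (SE, adjusted p = 0.00506), under the fold change asked for, and 0.32 ± 0.044 (SE, adjusted p = 0.00107). The isomerase Gpi1, the next step, ranged from 6130 to 14098 and was not called in either (0.15 ± 0.053 and 0.18 ± 0.053).

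Phosphofructokinase commits sugar to glycolysis, and its 3 subunit genes parted. Pfkp, the platelet form, was 2561, 1681 and 1731 with vehicle, 2685, 1633 and 1788 with E2, 3490.2, 2409.6 and 2523 with E2 plus fulvestrant, and 3457, 2353 and 2386 with fulvestrant alone. Replicate 1 was the highest of each group, and the samples with fulvestrant were higher in all 3 numbers, by 0.38, 0.56 and 0.50 with E2 and 0.43, 0.48 and 0.46 without. The fit gave 0.48 ± 0.048 (SE, adjusted p = 0.000166) and 0.46 ± 0.048 (SE, adjusted p = 0.000217). Pfkm, the muscle form, fell with E2 plus fulvestrant against E2, with a log2 fold change of -0.30 ± 0.07 (SE, adjusted p = 0.0208), without overlap of the groups, and had a change of -0.16 ± 0.07 that was not called with fulvestrant alone, and 10.2% of its exon sequence is shared with a gene that overlaps it. The liver form Pfkl was not called (0.20 ± 0.12 and 0.29 ± 0.12). Pfkfb3 makes the sugar phosphate that activates phosphofructokinase, and was 594, 1196 and 1221 with vehicle, 552, 1208 and 1163 with E2, 773, 1655 and 1593 with E2 plus fulvestrant, and 784, 1593 and 1636 with fulvestrant alone. Replicate 1 stood at less than the others in every group, and the paired differences were nearly the same in the 3 numbers, 0.48, 0.45 and 0.45 for E2 plus fulvestrant against E2 and 0.40, 0.41 and 0.42 for fulvestrant against vehicle. The fit gave 0.46 ± 0.051 (SE, adjusted p = 0.000292) and 0.41 ± 0.051 (SE, adjusted p = 0.000589). Pfkfb4, of the same family, stood at only 75.8 to 184 normalized counts and was not called (-0.10 ± 0.17 and 0.18 ± 0.17).

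**Figure D3:**
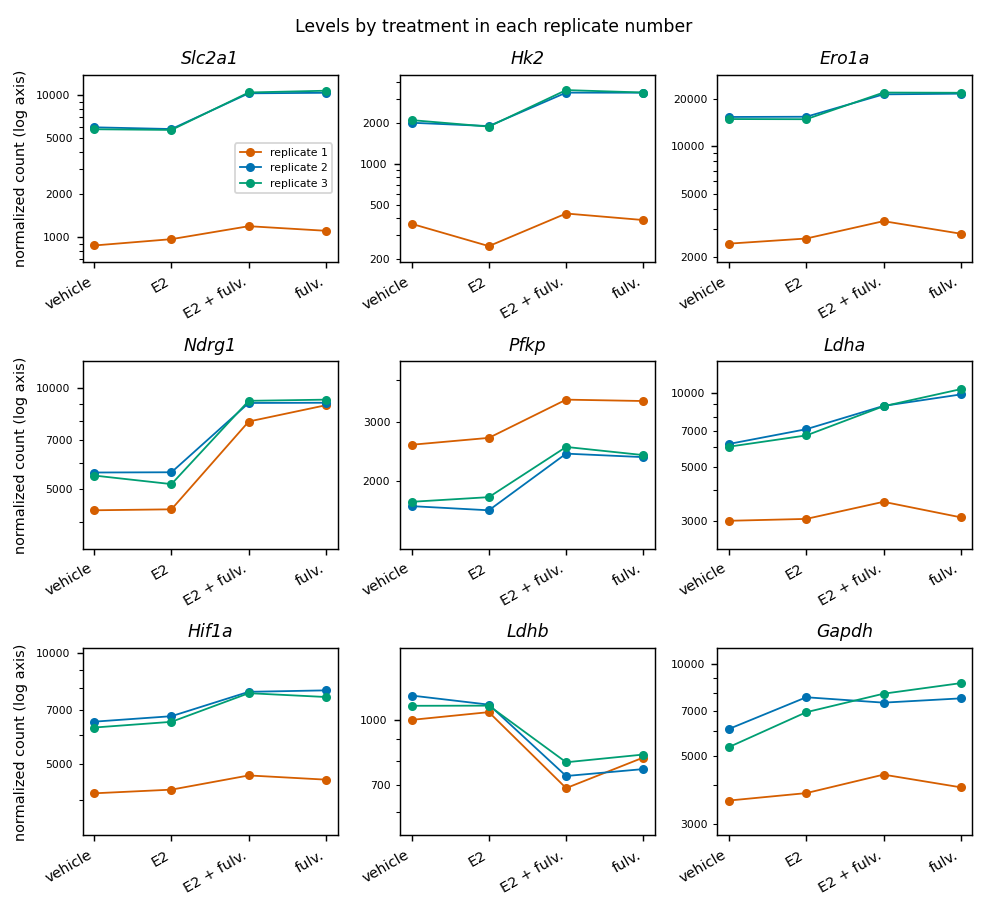
Normalized count on a log axis of 9 genes in the 4 treatment groups, 1 line per replicate number. In Slc2a1, Hk2 and Ero1a replicate 1 lies far below replicates 2 and 3; in Ndrg1 and Ldhb the lines lie close and move together with fulvestrant; in Pfkp replicate 1 lies above the others.

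Of the 7 genes from aldolase to pyruvate kinase, 5 rose with fulvestrant alone against vehicle, where 6.76% of all genes rose, and 0 were called with E2 plus fulvestrant against E2. The difference between the 2 comparisons was called for none (limma interaction, adjusted p from 0.944 to 0.945). Eno1, enolase, was 4089, 8277 and 7587 with vehicle, 4068, 9420.2 and 8741 with E2, 5059, 11272 and 11391 with E2 plus fulvestrant, and 4474, 11263 and 13512 with fulvestrant alone. Its values were higher with fulvestrant than without it in all 3 numbers, and replicate 1 lay below the others throughout, between 4068 and 5059. Changes were 0.32 ± 0.10 (SE, adjusted p = 0.0641) and 0.47 ± 0.10 (SE, adjusted p = 0.0106). Pgk1, which makes the first ATP of the pathway, was 1116, 1951 and 1843 with vehicle, 1081, 2280.0 and 2049.6 with E2, 1145, 2909 and 2726 with E2 plus fulvestrant, and 1200.2, 2812 and 3255 with fulvestrant alone, and replicate 1 moved little between treatments. Its changes were 0.28 ± 0.11 (SE, adjusted p = 0.138) and 0.48 ± 0.11 (SE, adjusted p = 0.0169). For Eno1 and Pgk1, and for Pgam1, near-identical copies are listed in the table, and HTSeq at its default settings, which the methods state, leaves out reads that align to several places. Gapdh, often used as a reference gene, was 3568, 6115 and 5336 with vehicle, 3773, 7762 and 6936 with E2, 4336, 7453 and 7972 with E2 plus fulvestrant, and 3941, 7697 and 8632 with fulvestrant alone. It was lowest with vehicle in each replicate number, and rose with fulvestrant against vehicle (0.39 ± 0.089, SE, adjusted p = 0.014) and not beyond the spread with E2 plus fulvestrant against E2 (0.11 ± 0.089, SE, adjusted p = 0.441). Aldoa (0.26 ± 0.063, SE, adjusted p = 0.0169) and Pkm (0.33 ± 0.091, SE, adjusted p = 0.0323) rose with fulvestrant alone as well, and neither was called when samples were scaled to equal read totals or quantile normalized, where Aldoa stayed under the fold change asked for and Pkm missed the adjusted p. Of Pkm, 15.3% of the exon sequence is shared with an overlapping gene. The triose isomerase Tpi1 (0.077 ± 0.063 and 0.22 ± 0.063) and the mutase Pgam1 (0.14 ± 0.11 and 0.33 ± 0.11) were not called in either.

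The 2 lactate dehydrogenase subunits went in opposite directions. Ldha, the subunit that favors making lactate and a textbook HIF target, was 2993, 6189.7 and 6032 with vehicle, 3047, 7116 and 6708 with E2, 3582, 8869 and 8844 with E2 plus fulvestrant, and 3092, 9886 and 10394 with fulvestrant alone. All 3 numbers were higher with fulvestrant in both comparisons, with paired differences of 0.23, 0.32 and 0.40 with E2 and of 0.05, 0.68 and 0.78 without it. The change was 0.32 ± 0.11 (SE, adjusted p = 0.0937) for E2 plus fulvestrant against E2, which did not pass, and 0.50 ± 0.11 (SE, adjusted p = 0.0129) for fulvestrant against vehicle, which did. Ldhb, the subunit of oxidative tissues, was 1002, 1147 and 1084 with vehicle, 1047, 1091 and 1085 with E2, 686, 734 and 792 with E2 plus fulvestrant, and 814, 763 and 827 with fulvestrant alone. Every sample with fulvestrant lay below every sample without it, in all 3 numbers, and replicate 1 did not stand apart. It fell, with log2 fold changes of -0.54 ± 0.066 (SE, adjusted p = 0.000533) and -0.43 ± 0.066 (SE, adjusted p = 0.00191). The transporters that carry lactate across the membrane, Slc16a1 (MCT1) and Slc16a3 (MCT4), were not called. Slc16a3 ranged from 61.9 to 673 normalized counts with paired differences of 0.19, 0.60 and 1.02 and -0.25, 0.82 and 1.15, with replicate 1 the lowest of the 3 in both.

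Pyruvate dehydrogenase kinases close the entry of pyruvate into mitochondria. Pdk1, the member most known as a HIF target, was 807, 446 and 445 with vehicle, 692, 407 and 470.2 with E2, 474, 445 and 379.5 with E2 plus fulvestrant, and 628, 455 and 394 with fulvestrant alone. It was higher in replicate 1 than in the other numbers in every group, the opposite of Slc2a1, and was not called (-0.24 ± 0.13, SE, adjusted p = 0.258, and -0.17 ± 0.13, SE, adjusted p = 0.42). Pdk3 was 504, 497 and 472 with vehicle, 524, 615 and 546 with E2, 417, 433 and 458 with E2 plus fulvestrant, and 383, 424 and 465 with fulvestrant alone. The samples with fulvestrant lay below those without it in both comparisons, with changes of -0.36 ± 0.087 (SE, adjusted p = 0.0218), which was called, and -0.21 ± 0.087 (SE, adjusted p = 0.122), which was not. Pdk2 was not called (-0.27 ± 0.10 and -0.29 ± 0.10). Pdk4, outside the 36 and the only one called of 15 genes of pyruvate entry, which include the dehydrogenase subunits and the mitochondrial carriers, was 811, 1202 and 1090.0 with vehicle, 974, 1054 and 1134 with E2, 1682, 1950.4 and 1906 with E2 plus fulvestrant, and 1754, 1936 and 1863 with fulvestrant alone. As a count, 1 of 15 is near the share of all genes that rose (4.97% and 6.76%). Pdk4 was higher in all 3 numbers, by 0.81 ± 0.081 (SE, adjusted p = 0.000163) and 0.86 (adjusted p = 0.000118). Pdk4 was also called without the replicate number in the fit (adjusted p = 0.0335 for E2 plus fulvestrant against E2).

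Glycogen is a glucose store that some cells build in low oxygen. The branching enzyme Gbe1 ranged from 424 to 1396 normalized counts and glycogen synthase Gys1 from 774 to 1529, and neither was called. The paper, which used a different test (DESeq2), lists Gbe1 among genes raised with E2 plus fulvestrant in RNA-Seq, ChIP-Seq and ATAC-seq. The changes here were 0.43 ± 0.15 (SE, adjusted p = 0.0912) and 0.49 ± 0.15 (SE, adjusted p = 0.0521) for Gbe1 and 0.27 ± 0.09 (SE, adjusted p = 0.0798) and 0.26 ± 0.09 (SE, adjusted p = 0.0786) for Gys1. In replicates 2 and 3 alone the samples with fulvestrant lay above the others for both genes, and in replicate 1 the paired differences were between -0.05 and 0.09. Of 18 other glycogen genes, 1 rose and 3 fell in each comparison, where 4.97% and 6.76% of all genes rose and 4.62% and 5.69% fell, so that the number that rose was near the background. Stbd1, a protein that binds glycogen, rose (0.43 ± 0.089, SE, adjusted p = 0.0108 for E2 plus fulvestrant against E2). The brain form of glycogen phosphorylase Pygb (-0.47 ± 0.051, SE, adjusted p = 0.000269), the phosphorylase kinase subunit Phkb (-0.27 ± 0.053, SE, adjusted p = 0.00841) and the phosphatase targeting subunit Ppp1r3d (-0.41 ± 0.08, SE, adjusted p = 0.00807) fell.

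The genes of the alpha subunits were not called. Hif1a mRNA was 4161, 6503 and 6269.6 with vehicle, 4257, 6729 and 6496 with E2, 4651, 7833 and 7766 with E2 plus fulvestrant, and 4530.4, 7904 and 7583 with fulvestrant alone. It was higher with fulvestrant in each replicate number, and lower in replicate 1 than in the others throughout. Its changes of 0.20 ± 0.049 (SE, adjusted p = 0.0237) and 0.23 ± 0.049 (SE, adjusted p = 0.0111) passed the adjusted p in both comparisons and stayed under the fold change of 1.2, at 1.15-fold and 1.17-fold. Epas1, the other alpha subunit, was the least abundant of the 36 genes, at 66.2, 22.6 and 29.5 with vehicle, 37.5, 19.3 and 32.7 with E2, 23.6, 30.2 and 39.6 with E2 plus fulvestrant, and 31.5, 38.9 and 43.8 with fulvestrant alone. No group stood out, replicate 1 ran against replicates 2 and 3, and it was not called (0.081 ± 0.36, SE, adjusted p = 0.907, and 0.088 ± 0.36, SE, adjusted p = 0.899). The hydroxylase Egln1, the main oxygen sensor, ranged from 2135 to 3148 and was not called (0.08 ± 0.08 and 0.18 ± 0.08). Egln3, a hydroxylase gene that HIF itself raises, ranged from 43.3 to 467 and had paired differences of -0.53, 0.50 and 0.49 and -0.69, 0.51 and 0.66, with replicate 1 of the opposite sign in both. Of 20 other regulators of the pathway, 1 rose and 1 fell with E2 plus fulvestrant against E2, a share near that of all genes (4.97% higher and 4.62% lower). The chaperone Hsp90aa1, which holds the alpha subunit, rose (0.43 ± 0.086, SE, adjusted p = 0.00892), and Arnt2, a relative of the partner subunit Arnt at 28.6 to 139 normalized counts, fell (-0.82 ± 0.16, SE, adjusted p = 0.00851). Arnt itself stood at 3453 to 4193 and was not called (-0.0045, adjusted p = 0.978). With fulvestrant alone 2 rose (Hsp90aa1 and the ubiquitin ligase Siah2) and 2 fell (Arnt2 and the HIF inhibitor Cited2), where 6.76% of all genes rose and 5.69% fell.

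Ndrg1, a stress and differentiation gene raised in low oxygen, was called in both comparisons with and without the replicate number in the fit of all 12 samples, and not in the fits of 6 samples without it, which called 8 (0.0605%) and 0 of all genes. Its normalized counts were 4331, 5612 and 5496 with vehicle, 4359.8, 5621 and 5182 with E2, 7962, 9042 and 9176 with E2 plus fulvestrant, and 8906, 9057 and 9250.3 with fulvestrant alone. All 6 samples with fulvestrant lay above all 6 without it, and replicate 1 was less apart here than in most of the other genes. The changes were 0.79 ± 0.067 (SE, adjusted p = 5.84e-05) and 0.83 ± 0.067 (SE, adjusted p = 4.5e-05), 1.73-fold and 1.77-fold. Without the replicate number the adjusted p was 0.0235 and 0.0231. Ero1a, an oxidase that forms disulfide bonds in the endoplasmic reticulum, was 2419.6, 15296 and 14840.3 with vehicle, 2607, 15348 and 14804 with E2, 3357, 21257 and 21824 with E2 plus fulvestrant, and 2796, 21472 and 21757 with fulvestrant alone. The step between replicate 1 and the others was larger than that between treatments, and within each number the sample with fulvestrant was higher. Its changes were 0.46 ± 0.077 (SE, adjusted p = 0.00345) and 0.42 ± 0.077 (SE, adjusted p = 0.00513).

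Vegfa, the growth factor of blood vessels, was 2382, 4425 and 4513 with vehicle, 2489.6, 3668 and 4249 with E2, 2739.7, 5374 and 5694 with E2 plus fulvestrant, and 2433, 5918 and 5816 with fulvestrant alone. The paired differences were larger in replicates 2 and 3 than in replicate 1, and the change was called with E2 plus fulvestrant against E2 (0.37 ± 0.10, SE, adjusted p = 0.0375) and not with fulvestrant alone (0.27 ± 0.10, SE, adjusted p = 0.0946). The call was lost when samples were scaled to equal read totals (adjusted p = 0.0511) or quantile normalized (adjusted p = 0.0621). The mitophagy receptor Bnip3 was 964, 1584 and 1501 with vehicle, 979, 1641 and 1536 with E2, 1139, 1938 and 2049.7 with E2 plus fulvestrant, and 1114, 1953 and 2150.4 with fulvestrant alone. It was higher with fulvestrant in each number, by 0.29 ± 0.065 (SE, adjusted p = 0.0158) and 0.34 ± 0.065 (SE, adjusted p = 0.00581). Its relative Bnip3l ranged from 3114 to 4842 and was not called (-0.053 ± 0.052 and 0.051 ± 0.052). The peptide hormone Adm, a HIF target, had changes of -0.15 ± 0.17 and -0.47 ± 0.17 and was not called. Its replicate 1 was at 2495 with vehicle and 1220 with fulvestrant, while replicates 2 and 3 had differences of -0.21 and -0.16 between fulvestrant and vehicle. Ankrd37, at 47.4 to 243 normalized counts, was not called either (-0.10 ± 0.14 and 0.11 ± 0.14).

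Of the 38 other HIF target genes, 10 rose and 5 fell with E2 plus fulvestrant against E2 (4.97% and 4.62% of all genes), and 13 rose and 3 fell with fulvestrant alone (6.76% and 5.69%). Their median change was 0.21 and 0.23. Among those that rose were the phosphatase Dusp1 (1.34 ± 0.27, SE, adjusted p = 0.0097) and Hmox1 (0.78 ± 0.14, SE, adjusted p = 0.00485) and the largest that fell were the secreted hormone Stc1 (-1.56 ± 0.30, SE, adjusted p = 0.00756), the growth factor binding protein Igfbp3 (-1.25 ± 0.25, SE, adjusted p = 0.00918) and the collagen hydroxylase P4ha3 (-0.78 ± 0.13, SE, adjusted p = 0.0032), all for E2 plus fulvestrant against E2. Stc1 stood at only 12.8 to 99.6 normalized counts over the 12 samples. With fulvestrant against vehicle Stc1 was not called (-0.025, adjusted p = 0.969), and the other 4 were called in the same direction. Several of these genes also answer to other signals. Without the replicate number in the fit, 0 of the 38 were called in the first comparison and 1 in the second. Of 17 other glycolysis genes, 0 were called with E2 plus fulvestrant against E2, and with fulvestrant alone the phosphoglucomutase Pgm2 rose (0.28) and the inositol transporter Slc2a13 fell (-0.41).

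E2 itself, compared with vehicle, gave 0 calls among the 36 genes, where 0.0756% of all genes (10) were called, and 4 of the 36 had an unadjusted p under 0.05, near the share of all genes that did (10.1%). They were Hk1 (0.13 ± 0.044), Gapdh (0.27 ± 0.089) and Tpi1 (0.14 ± 0.063), with changes above 0, and Hk2 (-0.26 ± 0.10), below 0, and their adjusted p lay between 0.463 and 0.485. The median over the 36 was 0.05. In the presence of fulvestrant, E2 plus fulvestrant against fulvestrant alone gave 0 calls among the 36 and 0 among all genes, with 0 of the 36 and 255 of all genes at an unadjusted p under 0.05, and the changes of the 36 ran from -0.30 (Epas1) to 0.18 (Adm). For the interaction, the difference between the fulvestrant change with and without E2, 0 genes were called, with 1 of the 36 (Hk2, unadjusted p = 0.0447) and 501 of all genes at an unadjusted p under 0.05. Without replicate 1 the counts over all genes were 4 and 11 in these 2 comparisons, none of them among the 36. No difference between the 2 fulvestrant comparisons was detectable for any of the 36, with standard errors of the interaction from 0.06 to 0.51 on the log2 scale. These comparisons share samples with those of fulvestrant and are not separate evidence.

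The change with fulvestrant differed in size between replicate numbers. For E2 plus fulvestrant against E2, the median paired difference over the 36 genes was 0.09 in replicate 1, 0.25 in replicate 2 and 0.30 in replicate 3, and for fulvestrant against vehicle 0.07, 0.36 and 0.45. In Slc2a1 the paired differences were 0.30, 0.84 and 0.88 and, with fulvestrant alone, 0.34, 0.81 and 0.90. In Ndrg1 they were 0.87, 0.69 and 0.82 and 1.04, 0.69 and 0.75, largest in replicate 1. With 1 sample per treatment in each number this difference between numbers was not tested. Of the 36 genes, 20 were higher in all 3 pairs and 4 lower in all 3 in the first comparison, and 22 and 4 in the second. Of all genes 26.4% were higher and 23.6% lower in all 3 pairs in the first, and 24.0% and 21.2% in the second.

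Without replicate 1 in any group, 23 of the 36 were called with E2 plus fulvestrant against E2 (19 higher, 4 lower), where 12.2% of all genes were, and 27 with fulvestrant against vehicle (25 higher, 2 lower), where 17.5% of all genes were. No gene called with all 12 samples was lost, and among those called only then, in both comparisons, were Slc16a1, Slc16a3, Pfkl, Pdk2, Gbe1, Gys1 and Egln3. Without replicate 2 the counts were 5 and 3, where 2.58% and 4.08% of all genes were called, and without replicate 3 they were 5 and 4, where 2.39% and 3.02% were. Leaving out single samples, the first count was 7 without replicate 2 or without replicate 3 of E2 plus fulvestrant, where 5.95% and 6.17% of all genes were called. The second was 8 without replicate 3 of vehicle and 9 without replicate 3 of fulvestrant, where 8.22% and 7.92% of all genes were, so the counts over all genes fell with those of the 36.

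**Figure D4:**
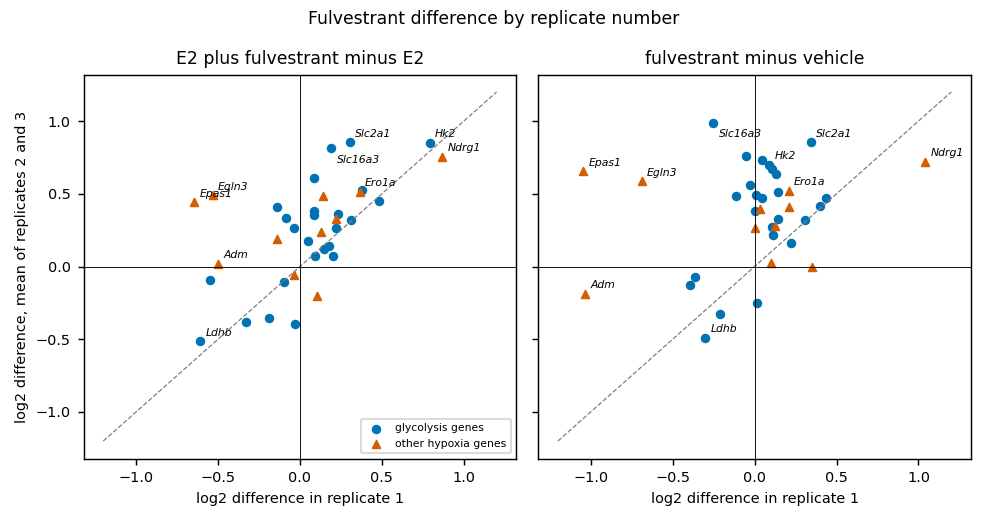
Log2 difference with fulvestrant in replicate 1 (x axis) against the mean of replicates 2 and 3 (y axis) for each of the 36 genes, with E2 (left) and without (right); the dashed line marks equal differences. Most points lie above the line, Slc16a3, Egln3 and Epas1 far above it without E2, and Ndrg1 lies under it in both panels.

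Per kilobase of exon, the mean over the 12 samples was highest for Aldoa, at 5685 normalized counts per kilobase, followed by Pkm (2831), Adm (2661), Ero1a (2488) and Ldha (1932). Exon length was that of all annotated exons of a gene together, not of the transcripts in these cells. Comparisons between genes in this measure therefore depend in part on the annotation. The order differed between treatments. Adm was above Pkm with vehicle (3006 against 2452 per kilobase) and with E2 (2659 against 2638), and Ero1a was above Adm with E2 plus fulvestrant (2929 against 2537) and with fulvestrant alone (2903 against 2442). The ranges over samples of neighbors in this order overlapped, as for Pkm (1715 to 3950) and Adm (753 to 3807). The lowest were Epas1 (6.19), Pfkfb4 (25.2), Slc16a3 (63.3) and Pdk1 (64.7). Hk1 stood at 488 and Hk2 at 319 per kilobase, with ranges of 398 to 579 and 42.0 to 584, so that Hk2 was far below Hk1 in replicate 1 and near it in replicates 2 and 3 with fulvestrant.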

How the data were processed

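RNA-Seq was measured in 12 samples of HAFs in 4 groups of 3. Per the labels and the methods, the authors trimmed reads with Trimmomatic 0.39, aligned them to mm10 with STAR 2.5.2, used HTSeq 0.13.5 for stranded gene counts, dropped counts under 10, and scaled samples with DESeq2 1.37 (median of ratios). As deposited, each value is a signal, the normalized count of a gene in a sample, and equals a whole number of reads (within 0.01) times a factor per sample. The methods also name a batch adjustment, and replicate numbers still differ in these values. Depth was 18827792 to 44040507 reads on listed genes per sample, and no interval was made from it, since errors come from the spread between samples.

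Symbols were matched for 13149 of 13233 identifiers, with positions and exon lengths from GENCODE M21 (GRCm38, the same build). Log2(value + 1) of all 12 samples was fitted with limma 3.58.1 in R 4.3.3, with treatment group and replicate number as terms and a variance trend, with Benjamini-Hochberg adjustment across the 13233 genes. Calls needed an adjusted p under 0.05 and a fold change over 1.2. A fold change on this scale understates changes of low genes. Replicate numbers are shared by the groups in the labels and were taken as pairs. Deviations from group means of same-numbered samples correlated at 0.63 to 0.92 in all 18 pairs of samples. In 36 pairs of different numbers they correlated at -0.86 to 0.79 (mean -0.29), which reaches into the same-number range. Deviations cancel within a group, so a negative mean for different numbers follows in part from the centering. Replicate 1 stood apart, and these correlations cannot decide how the samples of the other numbers pair.

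Values in every sample are given for the 15 called genes with the largest mean absolute change over both fulvestrant comparisons and for Hif1a, Epas1, Vegfa, Slc2a1, Hk2, Ldha, Pdk1 and Gapdh, and of each other list the 3 largest calls in each direction for E2 plus fulvestrant against E2, except for a gene that is not reported here. Pdk4 and Pgr values by sample, the replicate gaps named for other lists, and Siah2, Cited2, Pgm2 and Slc2a13 were added after values were seen. The members and lists were chosen with earlier results of these data known. The fit was tested on simulated data for E2 plus fulvestrant against E2 with 200 of 13233 genes changed: 53% of those changed by 0.5 on the log2 scale and 84% of those changed by 1 were called, 4.2% of the calls were false, and 1 gene was called when none was changed. The simulated noise was independent between samples and the change was the same in all replicates. In the data the paired differences varied between replicate numbers, so these rates hold for the simulated setting alone. Alternatives were the pseudocount, a filter on low values, the scaling, the variance trend, the replicate number, the samples fitted and leaving out samples. Values were read and plotted with Python 3.11.15, pandas 2.3.3, numpy 2.4.6 and matplotlib 3.10.9.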

Additional observations from a re-analysis of the deposited data

Results flagged for a closer look

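Hk2 was flagged because its level with E2 was below that without E2 in all 3 replicate numbers in the absence of fulvestrant and above it in all 3 in its presence. The log2 difference of E2 against vehicle was -0.54, -0.081 and -0.16 in replicates 1, 2 and 3, and that of E2 plus fulvestrant against fulvestrant 0.16, 0.0014 and 0.059. The difference between them was 0.33 ± 0.15 (SE) on the log2 scale and was not called (limma interaction, unadjusted p = 0.0447, adjusted p = 0.944). In both comparisons replicate 1 had the largest difference in size, so this value rests largely on replicate 1.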

How the results depend on the processing

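The counts of called genes depended on the replicate number and on which replicate was left out. Without the replicate block 2 of the 36 genes were called for E2 plus fulvestrant against E2 and 1 for fulvestrant against vehicle. On the 6 samples of each comparison alone, 0 and 0 were called without the block (8 and 0 of all genes), and 13 and 6 with it. Leaving out replicates or single samples gave 5 to 23 calls in the first, 3 to 27 in the second, and 0 (without replicate 1) to 33 for the difference between replicate numbers. With a pseudocount of 10 or 0.5, a filter at a mean of 100, no variance trend, scaling to equal read totals, quantile normalization or adjusted p alone, all these counts stayed within 1.5 times, and no gene changed direction in the fulvestrant comparisons. Vegfa (first comparison) and Aldoa and Pkm (second) were no longer called under either other scaling. Among the 36 genes, the 0 calls for E2 and for the interaction were 0 in every fit run. Over all genes, the interaction had 11 calls without replicate 1 and 1 without replicate 1 of E2, and E2 plus fulvestrant against fulvestrant had 4 without replicate 1 and 2 without replicate 1 of fulvestrant. The 10 calls over all genes for E2 against vehicle became 59 without replicate 1 and 0 without replicate 2 or replicate 3. They became 57 on the 6 samples with the block, 18 without replicate 1 of fulvestrant and 2 without replicate 3 of E2. Uncalled genes changed sign only when samples were left out, over ranges, for E2 plus fulvestrant against E2, of Adm (-0.27 to 0.056), Ankrd37 (-0.20 to 0.029), Egln1 (-0.032 to 0.19), Egln3 (-0.024 to 0.49), Epas1 (-0.19 to 0.44) and Pfkfb4 (-0.32 to 0.072), and for fulvestrant against vehicle, of Ankrd37 (-0.0053 to 0.25), Egln3 (-0.091 to 0.59) and Epas1 (-0.25 to 0.66). The causes were not tested. Tests on read counts (edgeR and DESeq2) were planned and not run, although whole reads could be computed from the values. Epas1 has no value under the filter, which leaves it out. No value rested on under 10 reads, and precision rests on 3 samples a group. Replicates 2 and 3 differed in 0 of all genes, so a group may hold fewer than 3 independent samples. The standard errors and p-values may then be too small.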
